A study of Mus musculus with 39 samples.

Results

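Border-associated macrophages (BAM), the macrophages of the meninges, choroid plexus and perivascular spaces, were compared between E18.5 and E12.5 (embryonic days) within one series of RNA-seq libraries. The comparison takes 3 BAM libraries of each stage, chosen because their library numbers belong to a single number series, and uses 6 of the 39 libraries of the study. The study sequenced total RNA of microglia and BAM sorted by fluorescence-activated cell sorting from brains of C57Bl/6 mouse embryos between E10.5 and E18.5. Matings were timed and the day of the vaginal plug was taken as E0.5. Both groups are untreated and carry no transgene or mutation in the labels. The labels name neither the surface markers used for the sort nor the litter of a library, and they do not say that libraries came from separate animals. The p-values below therefore measure the spread between libraries, which may be technical. The fit and its estimate of the spread also took the 17 other libraries of the same number series. These hold BAM at E14.5 and E16.5 and microglia at 4 stages. They supply the intermediate levels and the test of whether BAM and microglia changed alike.

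BAM and microglia both descend from yolk sac progenitors that seed the embryonic brain early. Microglia settle in the parenchyma, whereas BAM stay at its borders and are known for the mannose receptor Mrc1, the hyaluronan receptor Lyve1, the haemoglobin scavenger receptor Cd163 and a repertoire of scavenging and complement genes. Both depend on the receptor Csf1r. During fetal life both populations grow by division in place while the meninges and choroid plexus form around them.

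Total counts were between 14237340 and 24339829 in the E12.5 libraries and between 18418771 and 22629093 in the E18.5 libraries. Levels are CPM, that is counts divided by library size, scaled by edgeR's TMM factors. The 2 stages separated on the first principal component, which held 33.0% of the variance of the 500 most variable genes, and library 1 of E12.5 stood apart from the other two E12.5 libraries on the second, which held 20.8%. That library also had the highest summed level of 14 neural marker genes, at 826 CPM against 273 and 253 CPM in the other two E12.5 libraries and 415 to 636 CPM at E18.5. Csf1r was high in all 6 libraries, at 4714, 5439.9 and 5242 CPM at E12.5 and 8143, 6659 and 7485 CPM at E18.5, a log2 change of 0.53 ± 0.11 (standard error) with an edgeR adjusted p of 0.00236. Ptprc, the pan-leukocyte antigen CD45, was at 263, 268 and 268 CPM at E12.5 and 293, 291 and 306 CPM at E18.5. Its ranges did not overlap.

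Of 20450 genes tested, 2687 (13.1%) passed an adjusted p of 0.05 in edgeR's quasi-likelihood test with Benjamini-Hochberg adjustment. Among them 1364 (6.67%) were higher at E18.5 and 1323 (6.47%) were lower. The rises were larger than the falls: 784 genes rose and 388 fell at least 2-fold, and 385 rose and 81 fell at least 4-fold. For 2589 of the 2687 called genes the ranges of the 3 and 3 libraries did not overlap, against 29.2% of all tested genes. The calls were made on the same libraries, so this is no separate support for them. The median log2 change over all tested genes was 0.01. Below, gene lists are read against these background shares. In 14 of the 24 gene lists edgeR called no member in one direction. At an unadjusted p under 0.05 those directions held 6 genes, and DESeq2 called 0 there. Some other alternatives called 1 member lower in the border identity, interferon response, lysosome, macrophage transcription factor, and growth and guidance lists. Setting genes without a count in one group at their bound changed no list's median. In 1937 of the called genes (72.1%) the means at E14.5 and E16.5 lay between those of the end stages. The genes were called on those same end stages, so part of this share follows from the selection. The percentages of change that follow use the same end stages. The timing of the called genes differed by direction. Of the log2 change from E12.5 to E18.5, taken on mean CPM plus 0.5, genes that rose had covered a median of 36.8% by E14.5 and 84.4% by E16.5. Genes that fell had covered 53.2% by E14.5 and 61.6% by E16.5.

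**Figure D1:**
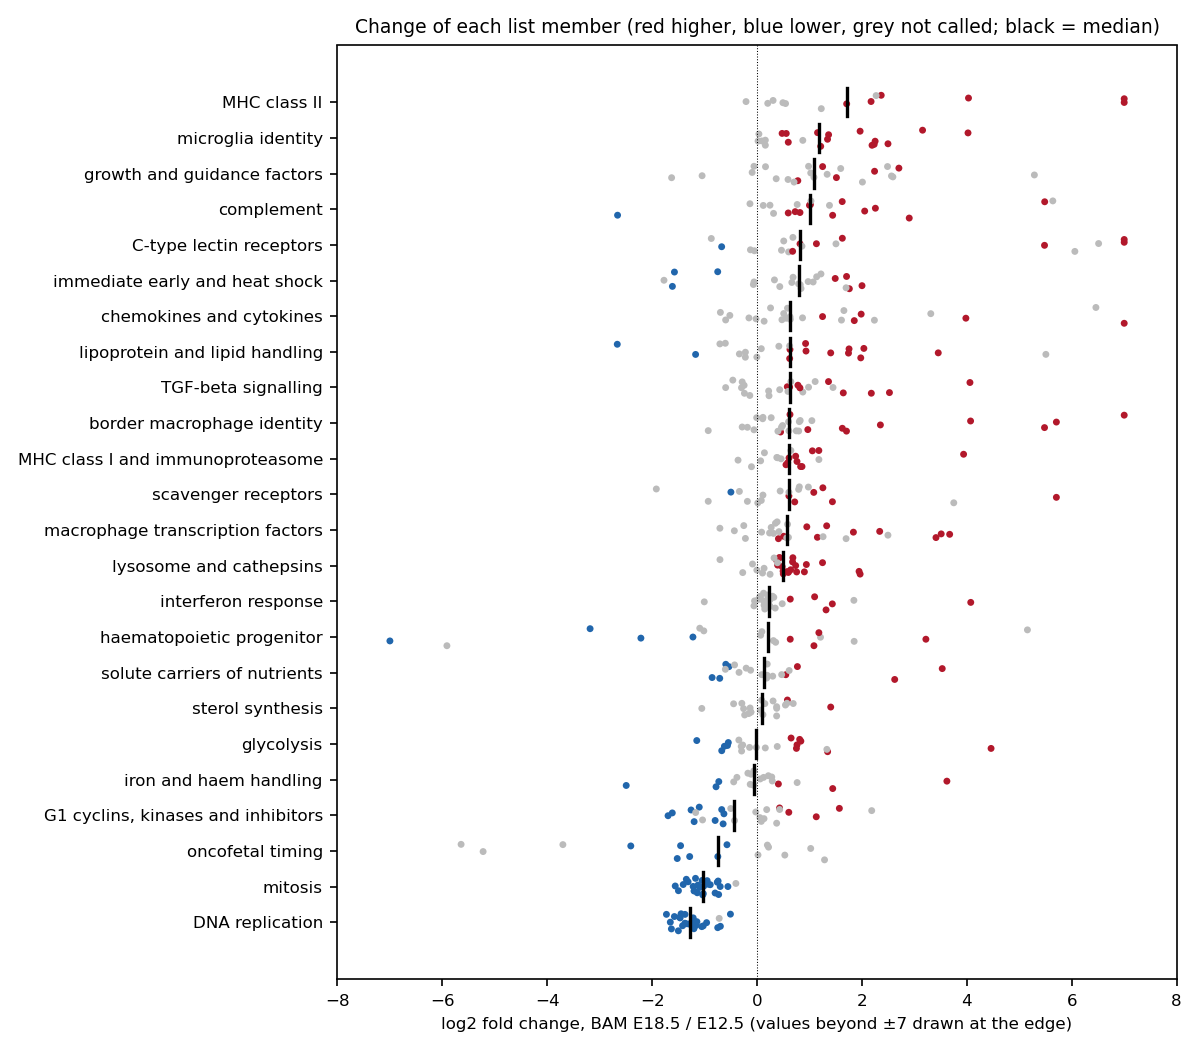
Log2 change of each tested member of the gene lists between BAM at E12.5 and E18.5, 1 row per list and 1 point per gene, red where called higher, blue where called lower and grey where not called, with a black bar at the median and values beyond ±7 drawn at that edge. DNA replication and mitosis members lie left of 0, with 25 of 26 and 24 of 25 called lower, while called members of the lysosome, microglia identity and MHC lists lie right of 0.

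The machinery of cell division fell as a block. Of 26 genes of DNA replication, 25 were lower at E18.5 and none higher, with a median log2 change of -1.28. Of 25 genes of mitosis, 24 were lower and none higher, with a median of -1.04. The background share of genes called lower was 6.47%. Mcm5, a subunit of the replicative helicase (chr8:75109569-75128439 in GRCm38), stood at 339, 447 and 410.3 CPM at E12.5 and 125, 117 and 138 CPM at E18.5, a log2 change of -1.65 ± 0.12 (adjusted p = 4.89e-09). No E18.5 library reached the lowest E12.5 library. Rrm2, the regulatory subunit of ribonucleotide reductase, which makes the deoxynucleotides for replication, fell from 157, 181 and 218 CPM to 50.4, 52.2 and 65.4 CPM, a log2 change of -1.73 ± 0.15 (adjusted p = 8.19e-08). Its E18.5 libraries sat close together, far below its lowest E12.5 value. Mcm6, another helicase subunit, fell from 448, 607 and 611 CPM to 233, 171 and 246 CPM (log2 change -1.36 ± 0.15). Pole, the catalytic subunit of DNA polymerase epsilon, was the replication gene that did not pass the test (-0.72 ± 0.33, adjusted p = 0.168), and Cenpf, a kinetochore protein, was that of the mitotic list (-0.40 ± 0.15, adjusted p = 0.0805).

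Among the mitotic genes Ccnb1, cyclin B1, which drives entry into mitosis with Cdk1, was at 215, 219.8 and 271 CPM at E12.5 and 85.2, 73.5 and 80.9 CPM at E18.5, a log2 change of -1.56 ± 0.14 (adjusted p = 1.2e-07). The 3 E18.5 libraries all lay far below the E12.5 libraries. Ube2c and Cdc20 are the ubiquitin-conjugating enzyme and the activator of the anaphase-promoting complex, which destroys cyclin B1. Ube2c went from 106, 111 and 104 CPM to 45.2, 50.3 and 46.8 CPM (-1.17 ± 0.14, adjusted p = 4.59e-06). For Cdc20 the values were 153, 188 and 215 CPM at E12.5 and 69.9, 82.5 and 86.2 CPM at E18.5 (-1.22 ± 0.15, adjusted p = 1.19e-05). Kif11, the motor that separates spindle poles, fell from 90.0, 157 and 138 CPM to 63.8, 56.8 and 65.9 CPM (-1.05 ± 0.18), and in none of these did the stages overlap. Mki67, the usual proliferation marker, changed less, from 274, 364 and 376 CPM to 234, 173 and 199 CPM (-0.74 ± 0.19, adjusted p = 0.00898), and its call was lost without E18.5 library 2. Division genes were still well detected at E18.5, so their RNA was reduced rather than lost. In bulk RNA, fewer cycling cells and less of these RNAs per cycling cell cannot be told apart.

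The fall was already large by E14.5. Replication genes had covered a median of 49.4% of their log2 change at E14.5 and 53.9% at E16.5, and mitotic genes 61.9% and 59.4%, so the level stayed nearly flat between E14.5 and E16.5. Mcm5, for example, was at 213, 255 and 201 CPM at E14.5 and 197, 186 and 221 CPM at E16.5. In microglia of the same series 9 of the 26 replication genes and 1 of the 25 mitotic genes were lower at E18.5 than at E12.5, with medians of -0.36 and -0.19. Of all 20450 tested genes 733 were called lower in microglia, so the mitotic count was near the background. The test of the difference between the populations, BAM change minus microglia change, called 11 replication and 12 mitotic genes more negative in BAM and none more positive, against 1.06% of all tested genes more negative.

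Genes that govern entry into the cycle were mixed. Of 25 G1 cyclins, kinases and inhibitors, 9 fell and 4 rose, with a median of -0.43. Cdk4, the G1 kinase, fell from 502, 501 and 511 CPM to 288, 283 and 299 CPM (-0.80 ± 0.10, adjusted p = 7.75e-06). The cyclin E gene Ccne1 fell from 31.7, 37.6 and 40.6 CPM to 10.3, 10.9 and 14.6 CPM (-1.62 ± 0.22). Its ranges did not overlap. The inhibitor Cdkn1a (p21) rose from 33.0, 32.5 and 40.4 CPM to 82.2, 93.8 and 55.9 CPM (1.13 ± 0.26, adjusted p = 0.00439), and the antiproliferative gene Btg2 rose from 95.1, 80.6 and 101 CPM to 198, 393 and 231 CPM (1.57 ± 0.35). Ccnd1, cyclin D1, also rose (0.43 ± 0.13, adjusted p = 0.0255), so members with opposite roles in the cycle moved the same way, but its call was lost without any 1 of E12.5 libraries 2 and 3 and E18.5 libraries 2 and 3. Leaving out E12.5 library 2 lowered the count of falling members to 6, and leaving out E12.5 library 3 or E18.5 library 3 lowered the count of rising members to 2.

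Promoter sequence is printed for members that moved together, so that the elements known from cell-cycle promoters can be seen. Each run is the 160 bases before the start site on the gene's own strand, 5′ to 3′, from RefSeq windows of GRCm38.p6. Capitals mark exact matches on either strand. For the mitotic genes they mark the cell-cycle genes homology region (CHR, TTTGAA or TTCGAA) and the CCAAT box (CCAAT), and for the replication genes the E2F element (TTTGGCGC, TTTCGCGC, TTTCCCGC or TTTGCCGC).
Ube2c (chr2:164769769-164769928, plus strand): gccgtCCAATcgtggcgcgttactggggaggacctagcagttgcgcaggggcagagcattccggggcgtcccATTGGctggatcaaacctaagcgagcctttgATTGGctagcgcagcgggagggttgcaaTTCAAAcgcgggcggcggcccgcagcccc
Cdc20 (chr4:118437344-118437503, minus strand): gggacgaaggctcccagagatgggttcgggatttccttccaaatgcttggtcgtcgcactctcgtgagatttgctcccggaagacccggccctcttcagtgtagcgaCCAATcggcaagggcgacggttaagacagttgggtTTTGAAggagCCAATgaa
Kif11 (chr19:37376222-37376381, plus strand): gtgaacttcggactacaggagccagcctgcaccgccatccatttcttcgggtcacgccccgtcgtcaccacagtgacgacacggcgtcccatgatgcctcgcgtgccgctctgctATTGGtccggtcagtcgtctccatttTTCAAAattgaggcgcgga
Mcm5 (chr8:75109349-75109508, plus strand): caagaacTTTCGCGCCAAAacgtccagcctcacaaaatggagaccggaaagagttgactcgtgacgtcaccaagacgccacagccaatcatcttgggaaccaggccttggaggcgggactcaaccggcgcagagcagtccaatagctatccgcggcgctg
Mcm6 (chr1:128359706-128359865, minus strand): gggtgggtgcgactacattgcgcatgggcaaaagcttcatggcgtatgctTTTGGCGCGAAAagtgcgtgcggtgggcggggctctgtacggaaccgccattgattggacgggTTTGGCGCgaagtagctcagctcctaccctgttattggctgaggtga
In Ube2c the CHR match began 29 bases before the start site, in Cdc20 18 bases and in Kif11 19 bases before it. Of 23 windows of 300 bases found for 22 mitotic genes, 78.3% held a CHR match, 82.6% a CCAAT match and 73.9% both. Over all 32851 windows the shares were 19.2%, 37.4% and 7.52%. Of 25 windows of 21 replication genes, 40% held an E2F match against 2.26% of all windows, and 56% held a CCAAT match. In the printed runs of Mcm5 and Mcm6 neighbouring E2F matches overlap. A match is a string of letters, and binding was not measured.

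**Figure D2:**
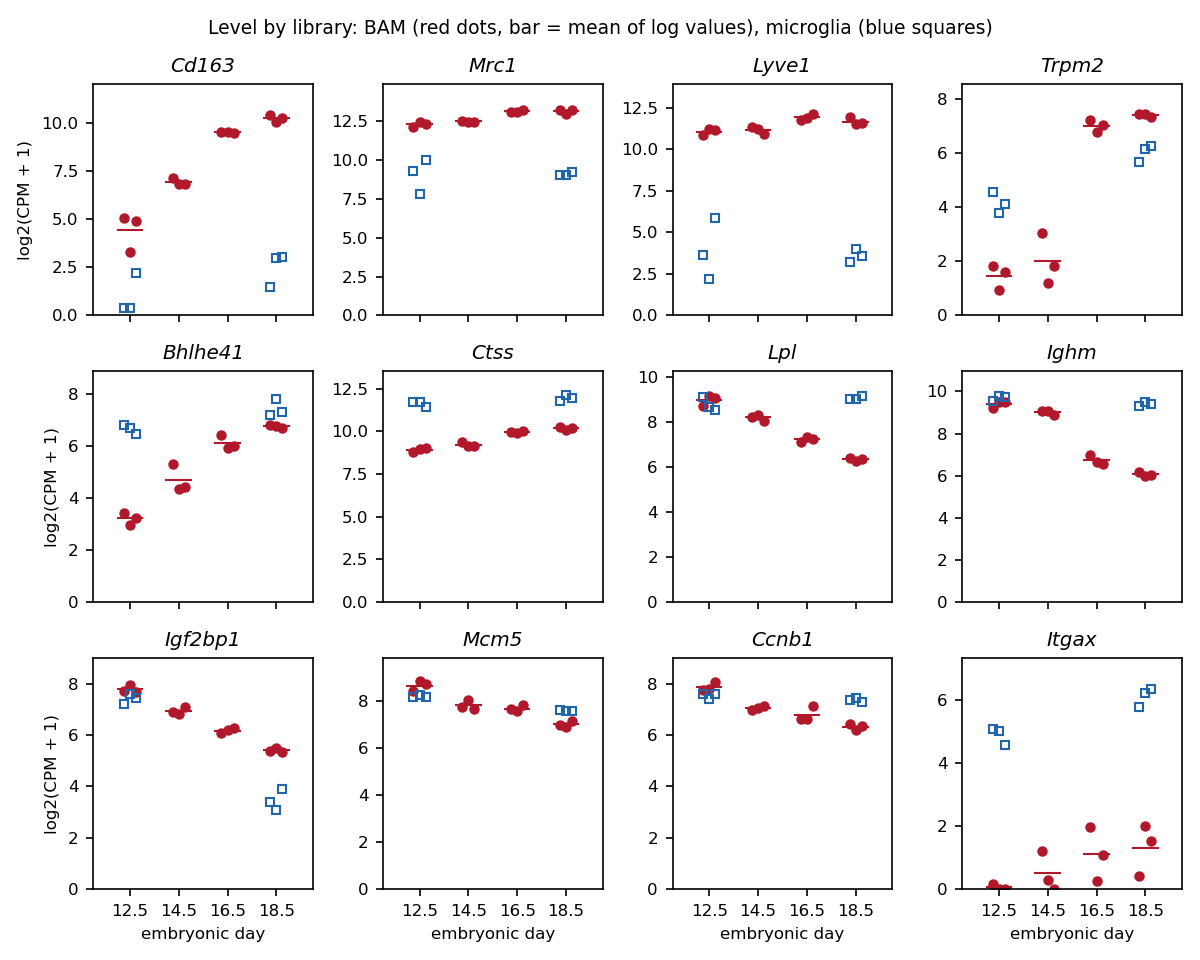
Level of 12 genes in each library on a log2(CPM + 1) axis against embryonic day, with BAM as red dots, their mean as a bar and microglia at E12.5 and E18.5 as blue squares. Cd163, Trpm2 and Bhlhe41 rise in BAM mainly between E12.5 and E16.5. Lpl, Ighm, Igf2bp1, Mcm5 and Ccnb1 fall in BAM between E12.5 and E18.5. The Itgax level in BAM stays far below that in microglia.

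In the fit of 23 libraries, border macrophage identity genes rose or did not pass the test, and none fell. Of 28 such genes, 10 were called higher, with a median log2 change of 0.62, against 6.67% of all genes called higher. Cd163 (chr6:124304656-124330527) changed most among them. It stood at 32.8, 8.79 and 29.3 CPM at E12.5 and 1369.8, 1075 and 1245 CPM at E18.5, a log2 change of 5.71 ± 0.74 (adjusted p = 1.61e-05). Every E18.5 library was far above every E12.5 library. The intermediate stages formed a staircase, with 138, 114 and 114 CPM at E14.5 and 745, 749 and 711 CPM at E16.5. Cbr2, a carbonyl reductase, rose from 7.65, 7.20 and 8.29 CPM to 155, 129 and 105 CPM (4.07 ± 0.58), with most of the rise after E14.5. Cd38, an ecto-enzyme that consumes NAD, behaved otherwise: it was at 41.9, 22.4 and 29.0 CPM at E12.5, 252, 162 and 240.3 CPM at E14.5 and 167, 138 and 169.6 CPM at E18.5 (2.35 ± 0.39, adjusted p = 0.000248), so that its highest level was at E14.5.

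Of 19 C-type lectin receptor genes, 7 rose and 1 fell, and 11 did not pass the test. With all 39 libraries in the fit 4 rose. Cd209f, a member of the DC-SIGN family, was at 2.23, 0.364 and 0.0854 CPM at E12.5 and 42.4, 31.2 and 38.1 CPM at E18.5 (5.48 ± 0.70, adjusted p = 3.58e-05) and was listed at 0 in all 6 microglia libraries of these stages. Cd209b had no count in the 3 E12.5 libraries and was at 4.22, 3.10 and 2.90 CPM at E18.5, at least 68.3-fold higher, and Cd209g went from 0 to 1.25, 1.24 and 2.55 CPM, at least 34.3-fold higher. These bounds set the E12.5 group at 3 counts over its 3 libraries. The value of Cd209f rested on library 1 of E12.5, without which it was 7.36. Even counts are in excess in these libraries, as when both reads of a pair are counted, so the bounds may be too high. Mgl2, a galactose-binding lectin, rose from 68.2, 68.9 and 73.3 CPM to 219, 200.2 and 230.4 CPM (1.63 ± 0.43, adjusted p = 0.0123). Clec7a, the beta-glucan receptor dectin-1, rose from 11.7, 14.53 and 11.4 CPM to 22.9, 29.8 and 29.6 CPM (1.13 ± 0.27). In contrast Cd302 fell from 62.2, 82.1 and 75.1 CPM to 52.5, 40.6 and 44.4 CPM (-0.67 ± 0.16, adjusted p = 0.00728).

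Unlike Cd163, the BAM markers Mrc1, Lyve1 and Pf4 were already high at E12.5 and gave no call in the fit of 23 libraries. Mrc1 was at 4576, 5659 and 5239.9 CPM at E12.5 and 9716, 7954 and 9388 CPM at E18.5, a log2 change of 0.81 ± 0.31 (adjusted p = 0.0954). All E18.5 libraries exceeded all E12.5 libraries. Lyve1 was at 1843, 2351 and 2264 CPM at E12.5 and 3901, 2924 and 3015 CPM at E18.5 (0.61 ± 0.56, adjusted p = 0.56), and Pf4, a chemokine of platelets and BAM, at 388, 459.7 and 398 CPM at E12.5 and 796, 795 and 612 CPM at E18.5 (0.82 ± 0.64, adjusted p = 0.47), again without overlap. When the 6 BAM libraries were fitted alone, all 3 genes passed, with edgeR adjusted p of 0.00316, 0.0222 and 0.00463. The number of identity genes called higher ranged from 6 with all 39 libraries in the fit to 18 with no filter on low counts. Stab1 and Dab2, a scavenger receptor and an endocytic adaptor abundant at both stages, changed by -0.18 ± 0.19 and -0.28 ± 0.30, with overlapping ranges.

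Of 20 scavenger receptor genes, 6 rose and 1 fell. Msr1, class A scavenger receptor 1, rose from 147, 173 and 159 CPM to 471, 386 and 439 CPM (1.44 ± 0.36, adjusted p = 0.0085). Cd68, a lysosomal glycoprotein of macrophages, rose from 406, 429.7 and 451 CPM to 1085, 1092 and 894 CPM (1.25 ± 0.13, adjusted p = 1.43e-06). For both genes the stages were apart in every library. Mertk and Axl, receptors for dying cells that bind the bridging protein Gas6, rose by log2 changes of 0.72 ± 0.16 and 1.08 ± 0.33, and Gas6 itself rose by 0.45 ± 0.14 (adjusted p = 0.0343). Scarb1, a receptor for high-density lipoprotein, changed by -0.50 ± 0.13 (adjusted p = 0.0139). The call of Gas6 was lost without any 1 of the 6 libraries, that of Axl without E12.5 library 2 or 3 or E18.5 library 1 or 3, and that of Scarb1 without E12.5 library 2 or 3 or E18.5 library 2 or 3. Without E12.5 library 1 the change of Axl was 1.70.

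The largest rises that met the naming rule reached well beyond identity genes. The rule asks for no overlap and an average log2 CPM of at least 4 over the 23 libraries of the fit, microglia included. A gene can therefore meet it through levels outside the 6 compared libraries. Trpm2 (chr10:77907722-77970563), a calcium channel opened by ADP-ribose and oxidative stress, was at 2.55, 0.911 and 2.05 CPM at E12.5 and 171, 171 and 161 CPM at E18.5, a log2 change of 6.53 ± 0.46 (adjusted p = 3.2e-09). At E14.5 it was still at 7.30, 1.27 and 2.58 CPM and at E16.5 it had reached 147, 107 and 129 CPM. Tnfsf18, the ligand of the receptor GITR, rose from 4.52, 2.46 and 3.67 CPM to 97.5, 67.4 and 75.8 CPM (4.50 ± 0.42). Adam8, a membrane metalloprotease, rose from 9.24, 0.957 and 9.35 CPM to 119, 111 and 69.7 CPM (3.94 ± 0.49), with 5.84, 5.91 and 4.41 CPM at E14.5 and its rise after that stage. Mlxipl encodes ChREBP, a glucose-responsive transcription factor, and rose from 0.637, 0.364 and 0.427 CPM to 17.2, 11.1 and 9.52 CPM (4.74 ± 0.45). Pla2g7, which hydrolyses platelet-activating factor, rose from 14.1, 12.53 and 13.5 CPM to 129, 102 and 121 CPM (3.13 ± 0.25, adjusted p = 2.04e-08), most of it by E14.5 (85.5, 41.6 and 68.3 CPM).

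Other large rises were in genes best known from neighbouring cells. Ptgds, prostaglandin D synthase, a gene of meningeal and choroid plexus cells, had the largest fitted change under that rule, from 0.510, 0 and 0 CPM to 95.4, 78.0 and 165 CPM (9.63 ± 0.93), and its E18.5 libraries differed widely. Its E12.5 counts were all in library 1, and without that library the fitted change was 14.06, so this is a fit against a group near 0 and no measured fold. Ptgds also rose in microglia, to 64.3, 15.7 and 34.4 CPM. Without E12.5 library 1 the fitted change of Aldoc in BAM was 5.14. Aldoc and Ndrg2, known from astroglia, rose from 4.97, 2.37 and 1.11 CPM to 47.2, 58.4 and 76.5 CPM and from 5.99, 3.55 and 1.96 CPM to 51.9, 62.5 and 98.9 CPM, with log2 changes of 4.46 ± 0.49 and 4.23 ± 0.53 in BAM and 3.42 ± 0.48 and 4.24 ± 0.54 in microglia. Over the same libraries the summed level of 14 mural and meningeal fibroblast markers was 205 to 461 CPM at E12.5 and 327 to 782 CPM at E18.5, and 6 of them rose, among them Slc6a13 from 3.12, 0.729 and 1.96 to 17.3, 23.01 and 40.0 CPM. The count of 6 became 3 without E12.5 library 2, E12.5 library 3 or E18.5 library 3, and with all 39 libraries in the fit. The part of RNA from such cells in these rises was not tested.

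MHC class II molecules present peptides to helper T cells. Of 13 MHC class II genes, 6 rose and none fell, with a median log2 change of 1.71. The invariant chain Cd74 was at 4.65, 7.34 and 4.70 CPM at E12.5 and 26.5, 32.0 and 27.8 CPM at E18.5 (2.37 ± 0.35, adjusted p = 7.62e-05). H2-Ab1, the class II beta chain, went from 0, 1.002 and 0.171 CPM to 8.96, 6.74 and 4.71 CPM (4.03 ± 0.74). Its partner H2-Aa had no count at E12.5 and 1.94, 1.77 and 1.08 CPM at E18.5, at least 32.3-fold higher. These levels were low beside those of Mrc1 in the same libraries, and at E16.5 H2-Ab1 was at 14.3, 4.19 and 11.6 CPM, a range that overlaps that of E18.5. Without E12.5 library 2 its fitted change was 6.01. H2-Ob, a chain of the inhibitor of peptide loading, had no count at E12.5 and 13.4, 8.38 and 12.7 CPM at E18.5, at least 230-fold higher. The master regulator Ciita was at 0.637, 0.228 and 0.0854 and 0, 0.266 and 0.884 CPM and its ranges overlapped.

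Of 19 genes of MHC class I and the immunoproteasome, 10 rose and none fell, with a median of 0.61, and in microglia 10 rose and 1 fell. Of all 20450 tested genes 845 rose and 733 fell in microglia. B2m, the class I light chain, rose from 609.8, 647 and 531 CPM to 1175, 1037 and 967 CPM (0.83 ± 0.14, adjusted p = 0.000307). H2-T23, a non-classical class I chain, rose from 83.1, 52.4 and 58.8 CPM to 162, 149.8 and 128 CPM (1.18 ± 0.20), and H2-K1, a classical one, from 255, 231 and 302 CPM to 518, 609.6 and 510.0 CPM (1.05 ± 0.20). None of the 3 overlapped between stages, although reads of near-identical class I genes may be shared. The peptide transporter subunits Tap1 and Tap2 rose by 0.55 ± 0.17 and 0.76 ± 0.15, the former called only with E12.5 libraries 1 and 2 and E18.5 libraries 1 and 3 all in the fit. Without E12.5 library 1, and likewise without E18.5 library 1, the number of rising members was 6 in place of 10.

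Of 25 interferon response genes, 5 rose and none fell, with a median log2 change of 0.22. Ifitm3, which restricts virus entry, rose from 14.7, 13.8 and 12.8 CPM to 41.1, 40.3 and 30.1 CPM (1.44 ± 0.31, adjusted p = 0.00318), and Irf9, a subunit of the interferon-activated transcription complex, from 105, 96.4 and 109 CPM to 155, 159 and 167 CPM (0.63 ± 0.14). Isg15, a ubiquitin-like effector, was at 4.46, 6.92 and 2.22 CPM at E12.5 and 3.19, 7.004 and 2.95 CPM at E18.5, with overlapping ranges and a log2 change of -0.05 ± 0.60 (adjusted p = 0.983). Mx1, an antiviral GTPase, was at 14.1, 26.2 and 20.03 CPM at E12.5, 2.41, 9.60 and 13.9 CPM at E14.5 and 15.1, 25.8 and 20.4 CPM at E18.5. The count of rising members was 3 without E12.5 library 1, 3 without E12.5 library 2, 2 without E12.5 library 3 and 3 without E18.5 library 3, and it was 2 when the E18.5 library of another number series joined the group. The promoter of Isg15 is shown because it carries the element of this list, the interferon-stimulated response element (ISRE core, in capitals, 3 overlapping matches), without a change of its RNA between the stages that passed the test.
Isg15 (chr4:156200819-156200978, minus strand): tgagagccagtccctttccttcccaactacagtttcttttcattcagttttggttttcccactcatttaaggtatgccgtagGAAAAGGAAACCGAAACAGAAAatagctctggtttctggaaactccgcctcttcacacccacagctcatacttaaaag
ISRE matches were in 58.3% of 24 windows of 20 interferon response genes and in 27.8% of 18 windows of 16 class I genes, against 3.44% of all windows.

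Of 20 complement genes, 11 rose and 1 fell, with a median of 1.01. With all 39 libraries in the fit 6 rose and the fall was not called. The 3 chains of C1q, which starts the classical pathway, all rose. C1qa was at 615, 742 and 795 CPM at E12.5 and 2235, 1831 and 1777 CPM at E18.5 (1.44 ± 0.14, adjusted p = 3.31e-07), C1qb changed by 0.73 ± 0.14 and C1qc by 1.02 ± 0.17. C1qa had the largest fitted change of the 3 chains, and no chain overlapped between stages. The call of C1qc, and that of C1qb, was lost when the additional E18.5 library of another number series joined the group. C3, the central component, rose from 2.55, 1.37 and 2.14 CPM to 11.8, 5.76 and 11.3 CPM (2.26 ± 0.46). The complement receptor Vsig4 fell from 4.97, 5.65 and 8.76 CPM to 1.03, 0.754 and 1.28 CPM (-2.66 ± 0.63, adjusted p = 0.00756), after a peak at E14.5 of 24.2, 14.8 and 14.1 CPM. Itgax, the CD11c chain of complement receptor 4, had 2 counts in the E12.5 libraries and 112 at E18.5, a ratio of 56.6 with a 95% counting interval of 15.3 to 473. Its E18.5 level was 2.51% of that in microglia of the same stage.

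Of 29 lysosomal genes, 20 rose and none fell, with a median of 0.50. Microglia had 16 higher and none lower, beside 845 higher and 733 lower of all 20450 tested genes. Ctsh, a cysteine cathepsin, was at 113, 99.5 and 98.4 CPM at E12.5 and 404, 370.4 and 422 CPM at E18.5 (1.94 ± 0.13, adjusted p = 2.05e-09). Ctss, cathepsin S, which trims the invariant chain, rose from 437, 506 and 517 CPM to 1206, 1075 and 1186 CPM (1.25 ± 0.11). By the test of the difference both changes were more positive in BAM than in microglia, at 2.32 ± 0.18 and 0.91 ± 0.16. That of Ctsl, cathepsin L, was more negative in BAM, at -1.39 ± 0.17. Npc1, the cholesterol exporter of the lysosome, rose from 60.0, 66.02 and 58.6 CPM to 121, 123 and 110.1 CPM (0.94 ± 0.13), and the galactosidase Glb1 from 122, 148 and 159 CPM to 246, 224 and 246 CPM (0.74 ± 0.13). Ctsb, at 8669.5, 10021 and 10729 CPM at E12.5 and 11707, 10448 and 10126 CPM at E18.5, overlapped. The regulator of lysosomal genes Tfeb was at 10.1, 14.8 and 13.9 CPM and 6.79, 8.11 and 8.89 CPM (-0.71 ± 0.26, adjusted p = 0.0829). The promoter of Glb1 is printed because it holds the palindromic E-box (CACGTG, capitals) known from lysosomal genes.
Glb1 (chr9:114400918-114401077, plus strand): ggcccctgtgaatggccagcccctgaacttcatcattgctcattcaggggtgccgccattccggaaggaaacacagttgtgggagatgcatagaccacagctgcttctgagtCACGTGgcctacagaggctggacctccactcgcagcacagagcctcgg
E-box matches were in 30% of 30 windows of 24 lysosomal genes, against 7.15% of all windows.

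Lipid handling divided into a sharp fall and several rises. Of 22 genes, 10 rose and 2 fell. Lpl, lipoprotein lipase (chr8:68880491-68907448), was at 418, 569 and 529 CPM at E12.5 and 82.6, 75.4 and 81.0 CPM at E18.5, a log2 change of -2.67 ± 0.15 (adjusted p = 7.24e-11). It stepped down through 299, 311 and 264 CPM at E14.5 and 135, 158 and 149.7 CPM at E16.5, and the 4 stages did not overlap. In microglia Lpl stayed high, at 544, 398 and 364 CPM at E12.5 and 517, 514 and 557 CPM at E18.5, and the difference between the populations was -2.95 ± 0.20 (adjusted p = 1.07e-08). Plin2, a coat protein of lipid droplets, fell from 975, 1066 and 1238 CPM to 496, 511 and 448 CPM (-1.17 ± 0.16). Rises were found for genes of cholesterol export and transfer. Abcg1, a sterol exporter, rose from 53.9, 30.4 and 43.6 CPM to 163, 129 and 139 CPM (1.75 ± 0.18, adjusted p = 9.85e-07), and Pltp, phospholipid transfer protein, from 33.7, 26.7 and 25.7 CPM to 124, 109.8 and 105 CPM (1.98 ± 0.24). Apoe, the most abundant transcript named here, rose from 11363, 13356 and 16972 CPM to 24067, 20955 and 19399 CPM (0.63 ± 0.19, adjusted p = 0.0274), a call lost without E12.5 library 1 or 2 or E18.5 library 1 or 2. Of 22 sterol synthesis genes 2 rose and none fell, a share close to the 6.67% of all tested genes called higher. The list's median log2 change was 0.10, and the alternatives called 1 to 3 members higher. The 2 rising genes included Srebf2, the regulator of the pathway (0.58 ± 0.19, adjusted p = 0.0472). Its call was lost in 7 of 14 alternatives, among them those without E12.5 library 2 or 3 or E18.5 library 2 or 3.

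Iron, sugar and nutrient genes moved in both directions. Of 19 iron and haem genes 3 rose and 3 fell, and 1 rose without E12.5 library 3, without E18.5 library 3 or with all 39 libraries in the fit. Tfrc, the transferrin receptor, was at 101, 149 and 136 CPM at E12.5 and 16.54, 29.4 and 22.5 CPM at E18.5 (-2.49 ± 0.27, adjusted p = 1.84e-06), with no overlap, and it fell in microglia as well (-1.85 ± 0.27). Hmox1, which degrades haem, fell from 645, 758 and 832 CPM to 478, 484 and 338 CPM (-0.78 ± 0.24, adjusted p = 0.0338) while its partner in haemoglobin clearance, Cd163, rose. Spic, a transcription factor of haem-recycling macrophages, rose from 0.637, 0 and 0 CPM to 1.94, 1.42 and 3.73 CPM (3.62 ± 1.08). Of 21 glycolysis entries 7 rose and 5 fell. The glucose transporter Slc2a1 rose from 45.9, 49.8 and 56.2 CPM to 109, 154 and 123 CPM (1.35 ± 0.19) and Slc2a3 fell from 44.2, 48.5 and 33.2 CPM to 22.4, 11.8 and 22.6 CPM (-1.15 ± 0.25). The hexokinases Hk1 and Hk2 rose (0.76 ± 0.20 and 0.75 ± 0.14), whereas the downstream enzymes Pgk1, Pkm and Ldha fell (-0.62 ± 0.14, -0.56 ± 0.13 and -0.67 ± 0.15). Of 20 nutrient carriers 4 rose and 4 fell. Slc29a3, the lysosomal nucleoside transporter, rose from 117, 130.0 and 128 CPM to 228, 208 and 204 CPM (0.77 ± 0.13), and Slc16a1, the lactate transporter, fell from 44.5, 43.2 and 49.1 CPM to 27.6, 26.5 and 29.5 CPM (-0.71 ± 0.16). Without E12.5 library 3 the rising glycolysis genes numbered 4. The call of Hk1 was lost without E12.5 library 3 or E18.5 library 3, that of Spic, whose E12.5 counts were all in library 1, without E12.5 library 2 or 3 or E18.5 library 3, and that of Hmox1 without E12.5 library 2 or 3 or any E18.5 library.

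Of 27 macrophage transcription factor genes 10 rose and none fell, and without E12.5 library 1 the number called lower was 1. Bhlhe41, a repressor known from tissue macrophages, rose from 9.81, 6.79 and 8.50 CPM to 111, 107 and 101 CPM (3.67 ± 0.24, adjusted p = 1.33e-09), with 38.3, 19.3 and 20.5 CPM at E14.5 and 84.9, 59.6 and 63.1 CPM at E16.5. No library of one stage reached the other. Etv5 and Etv1, ETS factors that act below growth factor signals, rose by 1.15 ± 0.14 and 1.33 ± 0.18, and Id2, an inhibitor of basic helix-loop-helix factors, by 2.34 ± 0.39. Spi1 (PU.1), the lineage factor of macrophages, was at 398, 543 and 519 CPM and 383, 401 and 297 CPM (-0.43 ± 0.17, adjusted p = 0.0957). Maf, a basic leucine zipper factor, was at 263, 274 and 393 CPM and 415, 343 and 363 CPM (0.27 ± 0.21, adjusted p = 0.457). Both overlapped between stages.

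Of 25 TGF-beta signalling genes 9 rose and none fell. Tgfbi, an extracellular protein induced by TGF-beta, was at 281, 347 and 311 CPM at E12.5 and 869, 775 and 769.7 CPM at E18.5 (1.36 ± 0.13, adjusted p = 2.25e-07). The pathway inhibitors Smad7 and Ski rose too: Smad7 from 1.15, 0.820 and 1.71 CPM to 5.93, 6.03 and 4.81 CPM (2.18 ± 0.36) and Ski from 53.3, 63.2 and 85.6 CPM to 125, 109 and 113 CPM (0.78 ± 0.16). The receptor Tgfbr2 rose by 0.62 ± 0.14, while the signal transducers Smad2, Smad3 and Smad4 gave -0.25 ± 0.19, -0.24 ± 0.16 and 0.23 ± 0.24, none of which passed. The changes of Tgfbi, Smad7 and Ski were more positive in BAM than in microglia, by 2.03 ± 0.18, 2.94 ± 0.49 and 1.15 ± 0.23 (edgeR adjusted p = 4.91e-07, 0.00124 and 0.00636). Both calls of Smad7, in BAM and for the difference, were lost when the additional E18.5 library of another number series joined the group.

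Among secreted factors, 5 of 24 chemokines and cytokines and 5 of 23 growth and guidance factors rose, and none fell, except that 1 of the latter was called lower without E18.5 library 2. Cxcl16 rose from 3.31, 4.97 and 2.43 CPM to 9.93, 21.7 and 10.8 CPM (1.99 ± 0.34, adjusted p = 0.000306). Csf1, the ligand of Csf1r, rose from 4.46, 3.10 and 3.93 CPM to 8.50, 13.3 and 19.4 CPM (1.85 ± 0.36). Il1a rose from 0.701, 0.319 and 0.214 CPM to 4.85, 8.25 and 5.30 CPM (3.98 ± 0.67) and reached 4.45% of its level in microglia. Spp1, osteopontin, was at 131, 101 and 139.8 CPM at E12.5 and 338, 372 and 352 CPM at E18.5 (1.51 ± 0.26, adjusted p = 0.000314), and Osm, oncostatin M, rose from 3.12, 3.55 and 6.32 CPM to 22.9, 39.9 and 22.5 CPM (2.70 ± 0.53). Igf1, a growth factor of brain macrophages, was at 262, 276 and 293 CPM and 333, 289.9 and 306 CPM, with overlapping ranges (0.16 ± 0.28, adjusted p = 0.786). Of 22 immediate early and heat shock genes 4 rose and 3 fell. Egr1 fell from 248, 349.7 and 403 CPM to 93.5, 138 and 94.8 CPM (-1.61 ± 0.40, adjusted p = 0.00814) and Junb rose from 47.3, 75.0 and 115 CPM to 199, 409.9 and 197 CPM (1.76 ± 0.47, adjusted p = 0.0144), with its highest value in E18.5 library 2. The number called higher was 2 without E12.5 library 1, 1 without E12.5 library 2 and 2 without E12.5 library 3. Without E18.5 library 2 none of these genes was called higher in edgeR's test, and the call of Junb was also lost without E12.5 library 1 or library 2.

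The largest fall under the naming rule was in the embryonic globin Hbb-y, from 167, 172 and 81.3 CPM to 0.228, 0.621 and 0.196 CPM (-8.57 ± 0.67), while the adult globin Hbb-bs rose from 8.92, 4.28 and 3.20 CPM to 85.4, 44.1 and 56.0 CPM (3.52 ± 0.50). Globins are genes of erythroid cells, whose 12 tested markers summed to 270 to 388 CPM at E12.5 and 212 to 327 CPM at E18.5. The source of the globin RNA in these libraries was not tested. Ighm, the immunoglobulin mu heavy chain (chr12:113418558-113422730), was at 587, 722 and 719 CPM at E12.5 and 70.8, 62.8 and 64.9 CPM at E18.5, a log2 change of -3.35 ± 0.14 (adjusted p = 5.26e-13). It was high in every E12.5 library and low in every E18.5 library, with the drop between E14.5 (532, 543 and 475 CPM) and E16.5 (127, 98.9 and 93.1 CPM). In microglia it stayed at 639, 733 and 683 CPM at E18.5. The B and T cell genes Cd79a and Trbc2 were below 1 CPM on average at both stages, and Cd3e and Cd3g had no count in the 6 libraries. Of 15 oncofetal timing genes 6 fell and none rose, with a median of -0.75. Igf2bp1, an RNA-binding protein of fetal cells, was at 212, 243 and 205 CPM at E12.5 and 40.8, 43.5 and 40.0 CPM at E18.5 (-2.41 ± 0.17, adjusted p = 3.05e-09), and Lin28b, which blocks let-7 microRNA maturation, fell from 30.6, 40.8 and 25.5 CPM to 13.3, 10.2 and 10.3 CPM (-1.52 ± 0.38). Both stages were apart in every library. Of 18 haematopoietic progenitor genes 4 rose and 4 fell. Myb, a progenitor factor, fell from 5.99, 5.24 and 8.80 CPM to 1.03, 2.57 and 0.687 CPM (-2.21 ± 0.68) and Gata1 from 1.53, 1.18 and 0.769 CPM to no count, at least 22.4-fold lower, while Cd93, a surface receptor, rose from 12.9, 13.2 and 8.12 CPM to 106, 96.9 and 115 CPM (3.22 ± 0.31, adjusted p = 3.13e-07). The number of progenitor genes called lower was 1 without E18.5 library 1 or 3 and 2 without E18.5 library 2 or E12.5 library 3, and the number called higher was 2 without E18.5 library 2. Without E18.5 library 2 the fitted changes of Hbb-y and Myb were -9.33 and -2.95. The call of Myb was also lost without E12.5 library 2 or 3 or E18.5 library 3, and that of Gata1 without any E18.5 library.

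Other strong falls were in Ptpn7, a lymphoid phosphatase, from 25.7, 48.2 and 44.6 CPM to 4.45, 4.96 and 1.87 CPM (-3.39 ± 0.36), and Slc43a3, a purine transporter, from 80.6, 102 and 110.0 CPM to 22.02, 22.9 and 19.9 CPM (-2.17 ± 0.20). Emilin1, an elastic fibre glycoprotein, fell from 138, 227 and 260.2 CPM to 37.9, 59.7 and 68.2 CPM (-1.92 ± 0.20). Tspan32, a haematopoietic tetraspanin, gave a log2 change of -2.19 ± 0.29, and Eme1, a subunit of a DNA repair nuclease, one of -2.16 ± 0.32. The stages did not overlap in any of these genes, but the naming rule asks for that, so it is no added support.

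Of 20 genes known as the microglial signature, 14 rose in BAM and none fell, with a median log2 change of 1.18 in BAM and 1.05 in microglia. Tmem119 was at 18.1, 34.9 and 35.6 CPM at E12.5 and 62.2, 62.7 and 73.1 CPM at E18.5 (1.15 ± 0.21, adjusted p = 0.000583), P2ry12, the ADP receptor, rose from 110.4, 129 and 115 CPM to 336, 246 and 318 CPM (1.34 ± 0.19), and Olfml3, a secreted protein, from 12.2, 11.48 and 10.2 CPM to 84.0, 99.9 and 118 CPM (3.16 ± 0.27). The stages did not overlap in any of these 3 genes. Set against microglia of the same stage, the BAM level went from 4.12% to 6.38% for Tmem119, from 11.7% to 14.9% for P2ry12 and from 1.57% to 5.80% for Olfml3. Sall1, the microglial transcription factor, went from 2.42% to 6.23%. Some members moved the other way against microglia: Siglech went from 15.1% to 7.03% and Fcrls from 60.9% to 38.9%. The part of microglial RNA in the BAM libraries was not tested.

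**Figure D3:**
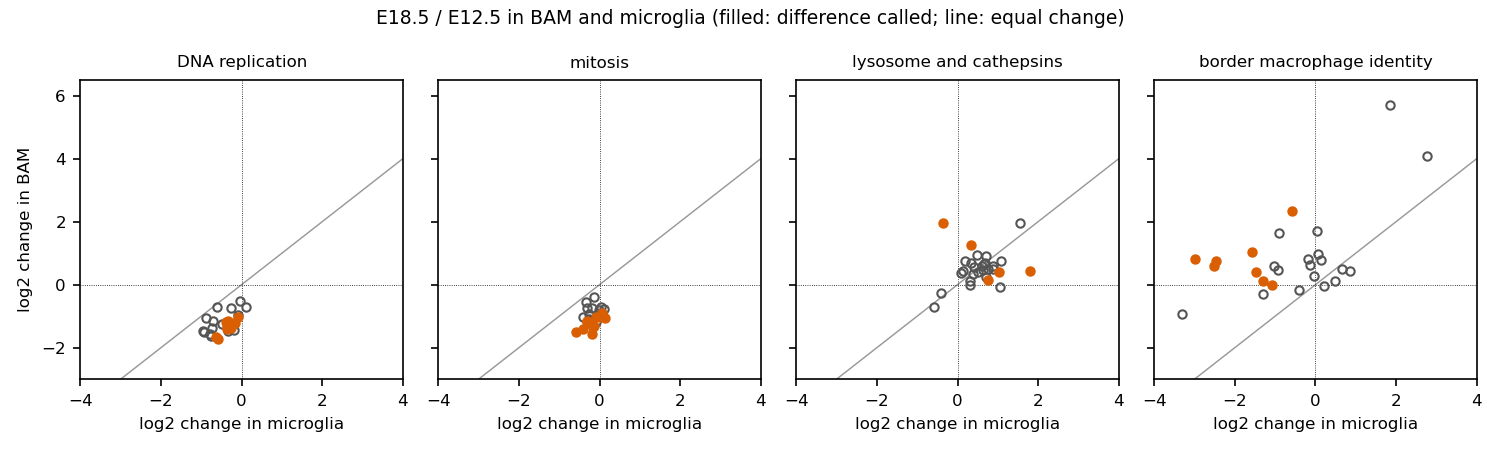
Log2 change between E12.5 and E18.5 in BAM (vertical) against that in microglia (horizontal) for members of 4 gene lists, with genes whose 2 changes differed by the test filled in orange and the line of equal change drawn. Genes without a count in microglia of both stages are left out. The replication and mitosis genes that differ lie below the line, with 11 of 26 and 12 of 25 called more negative in BAM. Of 29 lysosomal genes 2 were called more positive and 3 more negative. The border identity genes that differ lie above the line, with 8 of 28 called more positive in BAM.

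BAM and microglia shared part of the change. In microglia 845 genes rose and 733 fell between the same stages. Of the BAM calls, 752 were also called in the same direction in microglia, which is 28.0% of the BAM calls and 47.7% of the microglial calls, and 35 were called in opposite directions. The difference of the 2 changes was called for 445 genes (2.18%), 229 (1.12%) more positive and 216 (1.06%) more negative in BAM. Those counts rested on single libraries: without E12.5 BAM library 1 they were 368 and 434. The negative count was 125 without E12.5 BAM library 2, 136 without E12.5 BAM library 3, 136 without E18.5 BAM library 2 and 120 without E18.5 microglia library 3. Of the 445 genes, 326 also changed in BAM, 159 of them higher and more positive than in microglia and 156 lower and more negative.

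Among the genes more positive in BAM, Pla2g7 differed by 4.51 ± 0.33 on the log2 scale (adjusted p = 4.07e-08), since it fell in microglia from 98.6, 143 and 95.7 CPM to 34.5, 48.9 and 46.6 CPM. Trpm2 differed by 4.62 ± 0.55 (adjusted p = 3.48e-05): BAM started below microglia and ended above them, at 261% of their mean level. The changes of Cd93 (3.74 ± 0.42) and Adam8 (3.53 ± 0.65) were also more positive in BAM. For border identity genes part of the difference came from microglia. Pf4 was at 24.2, 3.80 and 83.8 CPM in microglia at E12.5 and 2.34, 7.50 and 4.09 CPM at E18.5, F13a1, coagulation factor XIII, at 348, 227 and 1148 CPM and 67.5, 129.9 and 111 CPM, and Clec10a at 5.69, 3.99 and 22.1 CPM and 0.780, 2.78 and 1.81 CPM. The differences were 3.80 ± 0.99, 3.23 ± 0.71 and 3.13 ± 0.73. In the same fit none of the 3 genes was called for the change in BAM. Each was called for that change in 2 of 14 alternative fits. The call of the Pf4 difference was lost without any 1 of 10 libraries, that of Clec10a without BAM E12.5 library 2, microglia E12.5 library 3 or microglia E18.5 library 1 or 3, and that of F13a1 without microglia E12.5 library 3 or E18.5 library 1. Without microglia E12.5 library 3 the differences of Pf4, F13a1 and Clec10a were 2.33, 2.19 and 1.93. On the negative side stood Ighm (-3.09 ± 0.18), Lpl, Slc43a3 (-1.95 ± 0.27) and Itgb3, the integrin beta 3 chain (-2.65 ± 0.63, adjusted p = 0.0257), whose call of the difference was lost without E18.5 BAM library 2 or 3, microglia E12.5 library 2 or 3 or microglia E18.5 library 1 or 3. Spp1 rose in both but less in BAM, by -2.15 ± 0.36 (adjusted p = 0.00146), with 2109, 2624 and 2388 CPM in microglia at E18.5. Igf2bp1 fell in both, less in BAM, by 1.63 ± 0.23 (adjusted p = 0.000245).

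**Figure D4:**
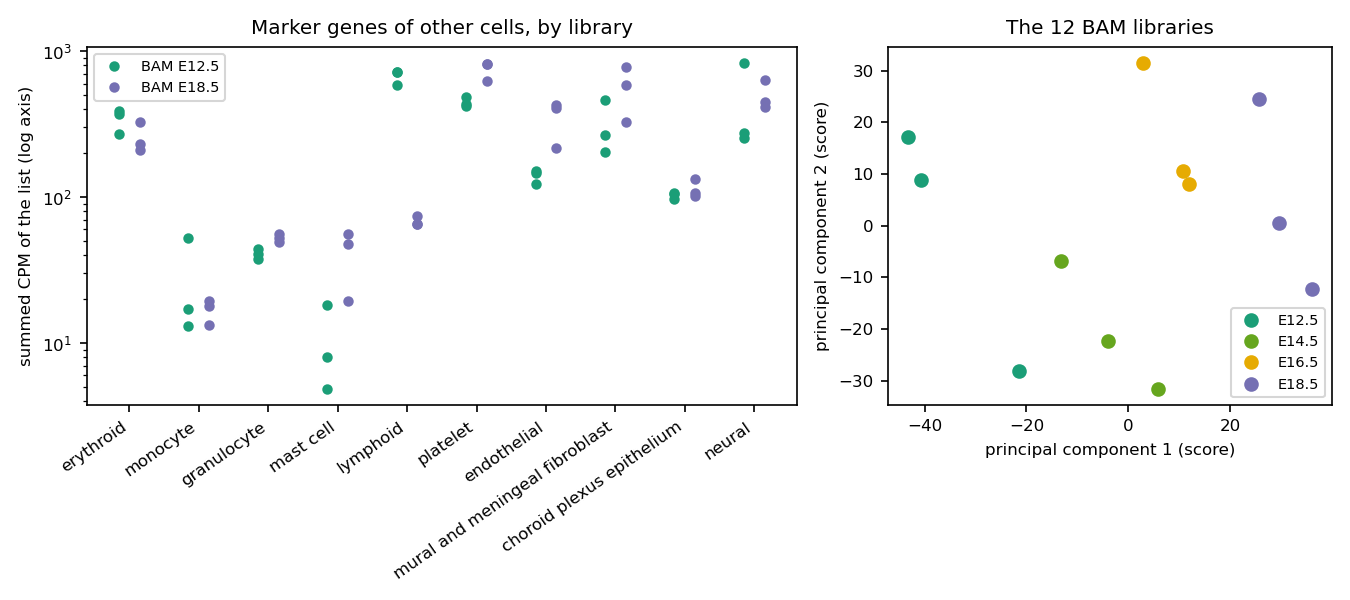
Summed CPM of marker genes of other cell types in each of the 6 libraries, and the positions of the BAM libraries on the first and second principal components. The summed neural level of E12.5 library 1 (826 CPM) is above that of the other 5 libraries, and the endothelial sums are all higher at E18.5 than at E12.5.

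Markers of other cells were measured in the same 6 libraries. The 13 endothelial markers summed to 122 to 151 CPM at E12.5 and 218 to 425 CPM at E18.5, and 4 of them rose, led by Cldn5, a tight junction protein, from 14.3, 9.75 and 9.74 CPM to 65.4, 147 and 135 CPM (3.37 ± 0.44). Plvap, a protein of fenestrated vessels, fell (-2.79 ± 0.81), a call lost without E12.5 library 2 or E18.5 library 1 or 2, and without E18.5 library 3 it gave -3.54. Of 14 neural markers 3 rose and 1 fell. Without E12.5 library 1 the counts were 5 and 0, and the number called lower was 0 to 2 without the other libraries. Mast cell markers summed to 4.87 to 18.2 CPM at E12.5 and 19.5 to 55.7 CPM at E18.5. Of these, Tpsb2 and Cma1 had no count at E12.5 and were at least 112-fold and 83.5-fold higher at E18.5, and Ms4a2, Fcer1a and Mrgprb1 had no count at either stage. The call of Cma1 was lost without any E12.5 library or without E18.5 library 3. No monocyte or granulocyte marker of the 8 and 6 tested passed the test. Monocyte markers summed to 13.03 to 52.3 CPM at E12.5 and 13.3 to 19.3 CPM at E18.5, with S100a4 at 0 in all 6 libraries, and granulocyte markers to 37.5 to 43.9 and 49.1 to 56.0 CPM. Platelet markers summed to 423 to 488 and 629 to 817 CPM, most of it Pf4, while 2 of the 10 were called lower and none higher, with a median log2 change of -1.48. The 2 became 1 without E12.5 library 1 or 3 or E18.5 library 3, and 0 without E18.5 library 2. Choroid plexus markers summed to 97.2 to 107 and 102 to 133 CPM, with 2 of 11 higher and 1 lower. The former count was 1 without E12.5 library 3, and the latter was 0 without any 1 of the libraries other than E12.5 library 1. The part of these cells in the changes above was not tested.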

How the data were processed

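The deposited table holds raw counts per gene and library. Per the submitters' processing notes, reads were aligned to GRCm38 with STAR and assigned to genes with featureCounts, whose versions and annotation release are not given in the sources used here. Per the labels' protocols, RNA was isolated with PicoPure and amplified by a modified SMART-seq2 method, Nextera XT libraries were made and both ends were read. Amplified reads are not independent molecules, so bounds and counting intervals cover counting error only. Even counts were in excess (in the 6 libraries 8537 entries were 2 and 3694 were 1), so intervals may be too narrow. No 2 libraries held identical values.

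The 23 libraries of the number series (8 groups) were fitted with edgeR 4.0.16 in R 4.3.3 (quasi-likelihood, TMM factors, filterByExpr, Benjamini-Hochberg, threshold 0.05), which left 20450 of 53379 gene IDs with 99.95% of the counts and 15 residual degrees of freedom. Contrasts were BAM at E18.5 minus E12.5, and that change minus the same change in microglia. The fit was tested on simulated data. DESeq2 1.42.0, other size factors, filters and library sets were alternatives. Levels are TMM-scaled CPM. Symbols were in the reference table for 53274 IDs. Named genes were the 12 largest changes each way without overlap and at mean log2 CPM 4 or above over the 23 libraries. Others were the 6 largest each way for the population difference and up to 4 members of each list with the smallest p. The leading markers of other cells and identity genes were named too, with other members where a list's count needed them. Members and lists were chosen with earlier results of these data known. Promoter windows were RefSeq's, from GRCm38.p6. Libraries of other number series were used in alternatives alone. Some members of the lists are counted but not reported here by name.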

Additional observations from a re-analysis of the deposited data

Results flagged for a closer look

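Of the genes named above, the ones in this section stood out because the change from E12.5 to E18.5 differed between BAM and microglia of the same number series, by edgeR's test of the difference at an adjusted p under 0.05. Values are the log2 change in BAM minus the log2 change in microglia. Among the genes with the largest differences and the surface or secreted proteins of BAM, the change was more positive in BAM for Trpm2 (4.62), Mlxipl (3.47), Il1a (3.51), Adam8 (3.53), Pla2g7 (4.51), Cd93 (3.74), Cd38 (2.94), Pf4 (3.80), F13a1 (3.23), Clec10a (3.13) and Axl (1.77). It was more positive also for the transcription factors and TGF-beta genes Bhlhe41 (2.86), Tgfbi (2.03), Smad7 (2.94) and Ski (1.15). Of lysosomal, lipid and antigen presentation genes it was more positive for Ctsh (2.32), Ctss (0.91), Pltp (2.13) and H2-Ob (8.67). Of the microglial signature and the oncofetal genes it was more positive for Olfml3 (1.89) and Igf2bp1 (1.63). The change was more negative in BAM for the cell division genes Mcm5 (-1.03), Mcm6 (-1.04), Rrm2 (-1.13), Ccnb1 (-1.37), Ube2c (-0.86), Cdc20 (-0.97), Kif11 (-1.17) and Ccne1 (-1.34). It was more negative also for Ighm (-3.09), Lpl (-2.95), Tspan32 (-1.84), Slc43a3 (-1.95), Emilin1 (-1.41), Itgb3 (-2.65) and Spp1 (-2.15). Of the remaining list members it was more negative for Fcrls (-0.65), Siglech (-1.10), Cd302 (-0.91), Ctsl (-1.39), Ctsb (-0.63), Pkm (-0.80) and Slc16a1 (-1.79). The H2-Ob value is a fit against a group without counts and is no measured fold. The call of the difference was lost in at least 10 of 20 alternative fits for Pf4, Siglech, Axl and Cd302, and in fewer for Il1a, Itgb3, Ctss, Ube2c, Ccne1, Smad7, F13a1, Clec10a, Fcrls, Ctsb, Pkm, Cdc20 and Kif11. In the other genes listed here it held in all 20. Without E18.5 microglia library 2 the value of Il1a was 4.32.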

How the results depend on the processing

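The number of genes called higher in BAM was 857 with all 39 libraries in the fit, against 1364, and that called lower stayed within 1.5 times in every alternative. For the difference between the populations DESeq2 called 463 more positive and 482 more negative, and edgeR without a filter on low counts 553 and 408. Leaving out single libraries gave 986 to 1503 genes higher and 899 to 1441 lower in BAM, and 158 to 368 more positive and 120 to 434 more negative for the difference. The extremes were without E12.5 BAM library 1 (368 and 434), without E18.5 microglia library 1 (158) and without E18.5 microglia library 3 (120), and the causes were not tested. Among the gene lists, the count of rising interferon response genes was 2 with all 39 libraries, against 5. Without a filter on low counts 12 immediate early and heat shock genes, 12 chemokines and cytokines, 11 lectin receptors and 8 growth and guidance factors were called higher, against 4, 5, 7 and 5. A fit of the 6 BAM libraries alone called 3 chemokines and cytokines higher. No named gene called in BAM or for the difference changed direction. No paired analysis was possible because the labels give no replicate number or shared animal, litter or day that ties a library of one group to a library of another. The spread between libraries and the counts of low genes limit the calls.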
